A study of Mus musculus with 6 samples.

Results

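Translation factors are the proteins that carry a ribosome through the making of a protein. Initiation factors (eIFs) bring the initiator methionyl-tRNA and the small ribosomal subunit to the capped end of an mRNA and find the start codon, and elongation factors (eEFs) deliver each later aminoacyl-tRNA and move the ribosome along the mRNA. Growing muscle cells regulate both steps through mTOR signalling and through phosphorylation of eIF2 and eEF2, so the genes of these factors were taken as a family. The genes were those with a GENCODE M21 symbol that begins with Eif and a digit from 1 to 6, or with Eef and the digit 1 or 2, and the choice used no measured value. *Eif2ak2*, which the same pattern would take, was left out. The files held 63 such genes among 14548 genes with values, 11 of them Eef genes and 52 Eif genes. A further 15 matching symbols of the annotation were not analysed here, of which 10 are processed pseudogenes, 1 is a long noncoding RNA and 4 code for proteins (*Eef1a2*, *Eef1akmt4*, *Eif2s3y* and *Eif4e1b*).

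The cells were C2C12 cells, a mouse line of myoblasts, grown in medium with fetal bovine serum. RNA from 3 WT libraries was compared with RNA from 3 MSTN-KO libraries, whose cells carry a CRISPR/Cas9 disruption of *Mstn*, the gene of the muscle growth inhibitor myostatin. All MSTN-KO libraries come from the single edited line C11, so the loss of *Mstn* and any other difference of that line from the WT cells cannot be told apart. The strain label reads C11 for the WT samples too, and the groups used here follow the labelled genotype. Nothing states that the replicates came from separate cultures, so p-values measure only the spread between these libraries, which may be technical. Because the values are from bulk cultures, fewer cells of a type and less RNA per cell cannot be told apart.

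Values are FPKM, a fragment count divided by the exonic length and by the mapped fragments of the library, so that levels of different genes are compared per length. The depth in fragments is unknown from these values. Summed FPKM ranged from 723705 to 764524 across WT and from 856314 to 999579 across MSTN-KO, without overlap. For *Mstn* itself, WT libraries gave 0.0211, 0 and 0.0399 FPKM and MSTN-KO libraries gave 0.0269, 0.0586 and 0.0390 FPKM (replicates 1, 2 and 3 in order, as for all values below). At such levels it does not check the genotype. Of 5 myoblast markers tested, 3 were lower in MSTN-KO and 1 was higher, and the defining marker *Myod1* was present in all libraries at a mean of 145 FPKM in WT and 96.1 FPKM in MSTN-KO. All 10 muscle differentiation markers tested were lower, with sums of 316 to 1077 FPKM in WT and 49.0 to 84.6 FPKM in MSTN-KO, and WT replicate 3 held the lowest WT sum. All 3 adipocyte markers tested were higher, with sums of 6.60 to 8.67 FPKM in WT and 28.5 to 40.7 FPKM in MSTN-KO, while *Adipoq* was not analysed here and *Plin1* stayed under 1 FPKM. The 3 endothelial markers in the files did not exceed 0.0542 FPKM, 1 of 2 fibroblast markers tested was lower, and the 1 immune marker tested did not pass. These marker shifts moved with the groups, and their part in the results below was not tested.

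Of the 63 factor genes, 62 reached 1 FPKM in at least 1 library and were tested with limma on log2(FPKM + 1), with p-values adjusted by the Benjamini-Hochberg method over all 10837 genes tested. At an adjusted p under 0.05, 11 factor genes were higher in MSTN-KO (17.7%, against 8.78% of all tested genes), 5 were lower (8.06%, against 8.96%) and 46 did not pass. By the cutoffs of the study for differentially expressed genes (a log2 fold change beyond 1 or -1 at an unadjusted p under 0.05), 0 factor genes were higher and 1 was lower, where these cutoffs called 1.21% and 2.3% of all tested genes. At an unadjusted p under 0.05 without a fold cutoff, 19 factor genes were higher (30.6%, against 16.3% of all) and 7 lower (11.3%, against 16.2%). In 20 genes (32.3%, against 19.3% of all) every MSTN-KO library lay above every WT library, and in 8 (12.9%, against 18.1%) every MSTN-KO library lay below. The median log2 fold change of the tested factor genes was 0.12, and that of all tested genes was -0.00078. The split of the calls depended on scaling. With each library scaled to the same summed FPKM, which lowered the median of all genes to -0.26, the factor genes had a median of -0.16. In that fit 4 factor genes were higher (6.45%, against 3.23% of all tested genes) and 10 lower (16.1%, against 21.8%). The 5 gained as lower were *Eef1e1*, *Eif2s3x*, *Eif4e2*, *Eif4enif1* and *Eif4g2*. With quantile normalization 8 were higher (12.9%, against 8.96% of all) and 6 lower (9.68%, against 8.68%), and the medians of the factor genes and of all genes were both 0.02.

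**Figure D1:**
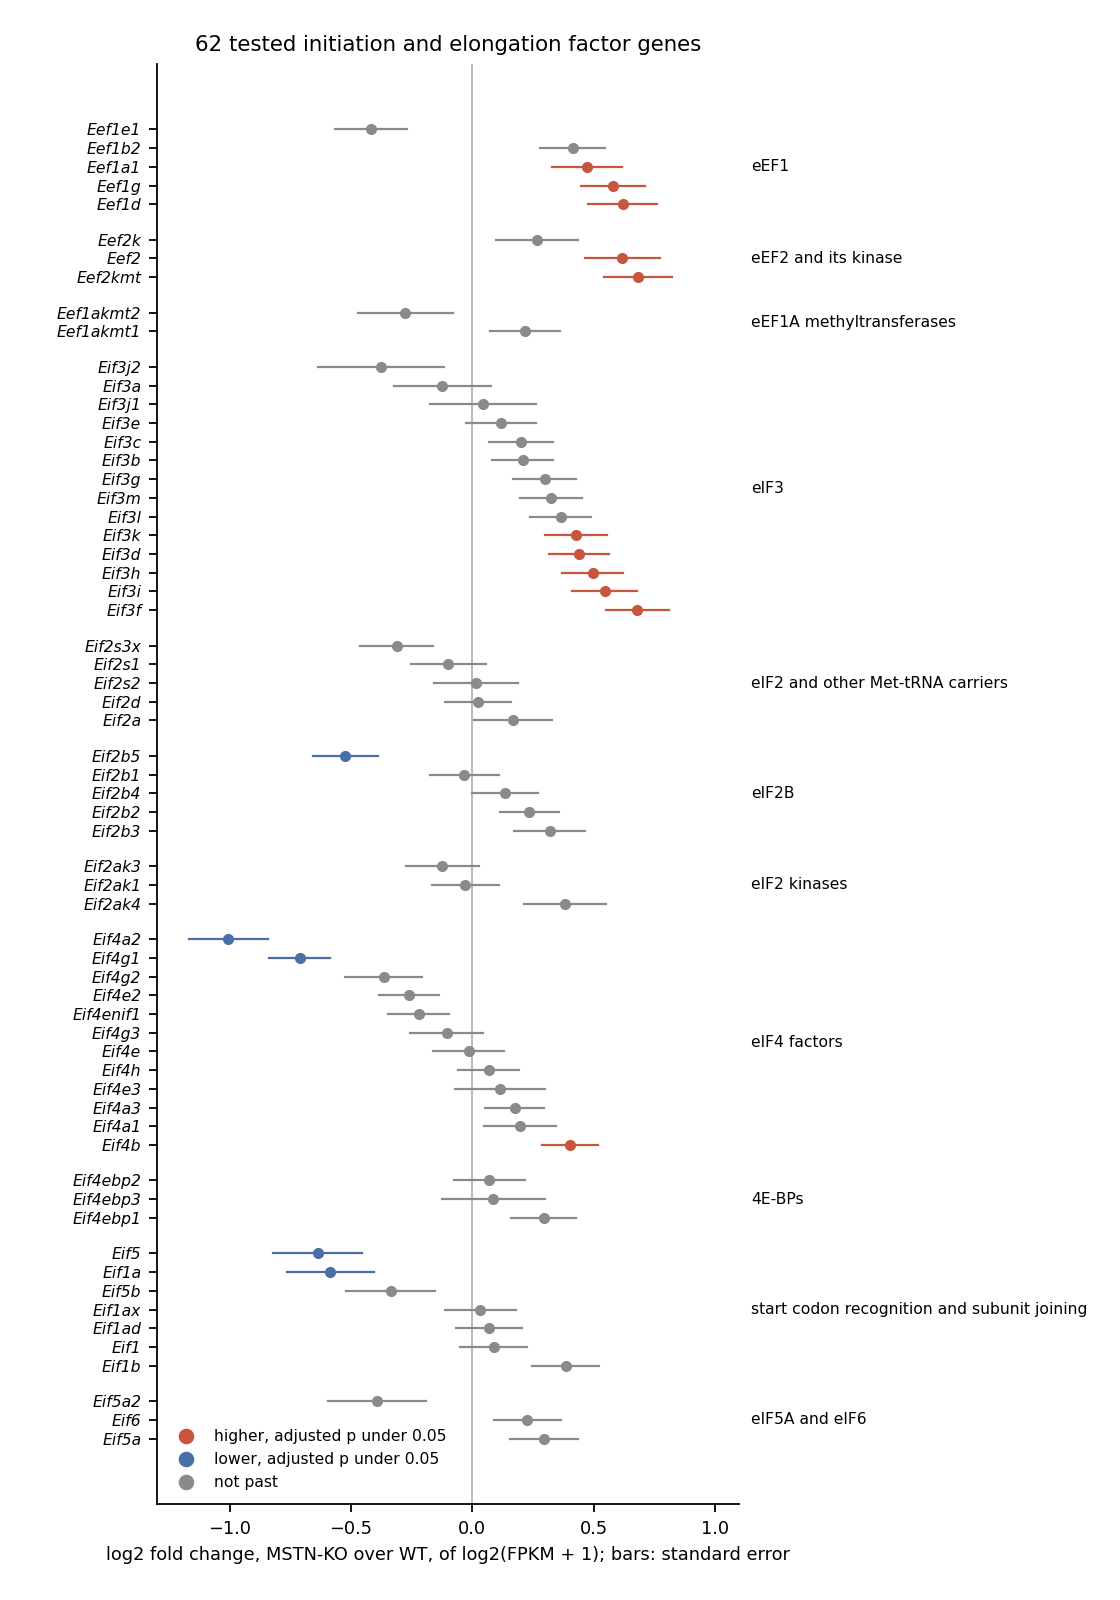
Log2 fold change of log2(FPKM + 1), MSTN-KO over WT, for the 62 tested factor genes, grouped by role (points, limma estimate; bars, standard error; 3 libraries per group; red and blue, adjusted p under 0.05). The 11 red points include 5 Eef genes and 5 eIF3 subunits, and 3 of the 5 blue points (Eif4a2, Eif4g1 and Eif2b5) are genes of chromosome 16; Eef1a1 turned to -0.03 with quantile normalization.

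The counts changed with the libraries in the fit. Without WT replicate 1, 6 factor genes were higher (9.68%, against 7.38% of all tested genes) and 2 lower (3.23%, against 6.14%). Without WT replicate 2 there were 3 higher (4.84%, against 3.92%) and 2 lower (3.23%, against 5.61%). Without WT replicate 3 there were 6 higher (9.68%, against 5.59%) and 3 lower (4.84%, against 7.39%). Without MSTN-KO replicate 1 the counts were 6 higher (9.68%, against 4.73%) and 3 lower (4.84%, against 6.44%). Without MSTN-KO replicate 2 they were 13 higher (21.0%, against 11.0%) and 5 lower (8.06%, against 11.6%). Without MSTN-KO replicate 3 they were 8 higher (12.9%, against 5.39%) and 3 lower (4.84%, against 6.69%). These fits have fewer libraries. Over all genes the counts fell too, to as few as 423 higher and 606 lower, except without MSTN-KO replicate 2. In that fit they rose to 1184 higher and 1251 lower, from 952 and 971 with all libraries. *Eef1d*, *Eef2kmt*, *Eif3f*, *Eif4a2* and *Eif4g1* passed the test in all 6 of these fits.

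The factor genes held 1.88%, 1.91% and 1.92% of each WT library's summed FPKM and 2.05%, 2.04% and 1.97% of each MSTN-KO library's. The MSTN-KO shares all lay above the WT shares, with means of 2.02% ± 0.0426 (SD, n = 3) against 1.90% ± 0.0204 (two-sided exact permutation test, p = 0.1, the smallest value that 3 against 3 libraries can give). This share does not depend on how a library is scaled, but it weighs each gene by its FPKM. *Eef1a1*, *Eef2*, *Eif5a*, *Eif1* and *Eif4a1* were the most abundant, with means over all 6 libraries of 4377, 2592, 1809, 782 and 767 FPKM. *Eef1a1* and *Eef2*, both of which rose, therefore weigh most in the share. A share without them was not tested, so the share does not show that the less abundant genes rose.

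Most genes of the elongation factor subunits rose. The genes that encode subunits of eEF1 and eEF2 are *Eef1a1*, *Eef1b2*, *Eef1d*, *Eef1g* and *Eef2*. In all 5, every MSTN-KO library lay above every WT library, as in 19.3% of all tested genes. The test called 4 of them higher (80.0%, against 8.78% of all tested genes). The median log2 fold change of the 5 was 0.58. The median stayed above 0 with a common summed FPKM (0.29) and with quantile normalization (0.22), although *Eef1a1* alone turned to -0.03 with quantile normalization. eEF1A, the product of *Eef1a1* (chr9:78478449-78489151), carries aminoacyl-tRNA to the ribosome with GTP. Its mRNA was the most abundant of the family, at 3340, 3731 and 3933 FPKM in WT and 5347, 4768 and 5143 FPKM in MSTN-KO. The groups did not overlap, and the log2 fold change was 0.47, SE 0.15, adjusted p = 0.0398. Because it has processed pseudogenes and a close paralog, the share of its fragments placed on its own locus is uncertain. *Eif1*, *Eif2s3x*, *Eif3e* and *Eif5a*, which also have processed pseudogenes, share this limit. So do the eIF4A genes, for which the processed pseudogene *Eif4a-ps4* is annotated.

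The other eEF1 genes belong to the exchange complex that recharges eEF1A with GTP. *Eef1d* (chr15:75894205-75909556), an exchange subunit, rose from 263, 289 and 288 FPKM in WT to 406, 375 and 522 FPKM in MSTN-KO. That is a mean of 279.8 ± 14.6 FPKM against 434 ± 77.4 FPKM and a log2 fold change of 0.62, SE 0.14, adjusted p = 0.00954. *Eef1g* (chr19:8967041-8978479), the subunit that anchors the complex, rose from 444, 412 and 426 FPKM to 624, 567 and 737 FPKM, with a log2 fold change of 0.58, SE 0.13, adjusted p = 0.00966. In both genes every MSTN-KO library lay above every WT library, and the MSTN-KO libraries spread more widely than the WT libraries. *Eef1b2*, the other exchange subunit, measured 359.5, 391 and 400.1 FPKM in WT and 522, 439 and 582 FPKM in MSTN-KO, without overlap, and its log2 fold change of 0.41, SE 0.14, adjusted p = 0.0512 did not pass. It passed in 5 of 16 alternative fits, among them 75th percentile scaling (adjusted p = 0.0482), the length and GC correction and the fit without MSTN-KO replicate 2. *Eef1e1* is named as an eEF1 gene but encodes a part of the tRNA synthetase complex. It alone of the 5 eEF1 genes went the other way, with 33.9, 30.9 and 43.4 FPKM in WT and 26.7, 23.9 and 29.01 FPKM in MSTN-KO, and did not pass (-0.42, SE 0.15, adjusted p = 0.0684). It passed as lower in 4 of 16 alternative fits, among them a common summed FPKM (-0.70, adjusted p = 0.00506) and quantile normalization (-0.47, adjusted p = 0.0404).

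eEF2 moves the ribosome by a codon after each peptide bond. *Eef2* (chr10:81176631-81182498) rose from 2457, 1901 and 1806 FPKM in WT to 2927, 3162 and 3301 FPKM in MSTN-KO, or from 2054 ± 352 FPKM to 3130 ± 189 FPKM. WT replicate 1 was the highest of its group and still lay below every MSTN-KO library, and the log2 fold change was 0.62, SE 0.15, adjusted p = 0.0154. *Eef2kmt* (chr16:5244152-5255983), a methyltransferase that modifies a lysine of eEF2, had the largest fitted rise of the family at a much lower level. It measured 15.7, 12.4 and 12.2 FPKM in WT and 20.8, 23.5 and 21.9 FPKM in MSTN-KO (0.68, SE 0.14, adjusted p = 0.00501). *Eef2k*, the kinase that inhibits eEF2 by phosphorylation, overlapped between the groups at 17.98, 16.7 and 12.04 FPKM in WT and 22.2, 16.3 and 17.98 FPKM in MSTN-KO (0.27, SE 0.17, adjusted p = 0.291). Its mRNA says nothing of the activity of the kinase. Among 7 genes for the diphthamide residue that eEF2 carries, limma called 0 in either direction, also at an unadjusted p under 0.05. At that unadjusted p, 16.3% of all tested genes were higher and 16.2% lower.

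Some of these calls were lost in the smaller fits. *Eef1a1* lost its call without WT replicate 1, 2 or 3 or MSTN-KO replicate 1, with a largest adjusted p of 0.161, while its log2 fold change stayed between 0.41 and 0.53. *Eef2* lost it without WT replicate 2 or 3 (0.0950, log2 fold changes of 0.53 to 0.75 over the 6 fits), and *Eef1g* without WT replicate 2 (0.0597, 0.48 to 0.67). *Eef1d* and *Eef2kmt* stayed under 0.05 in each of the 6 fits. Scaled to a common summed FPKM, *Eef1a1*, *Eef2* and *Eef2kmt* kept their direction at 0.19, 0.33 and 0.42 but did not pass. With quantile normalization *Eef2* was at 0.22 and did not pass (adjusted p = 0.229), and *Eef1a1* and *Eef2* did not pass without a filter on low values.

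**Figure D2:**
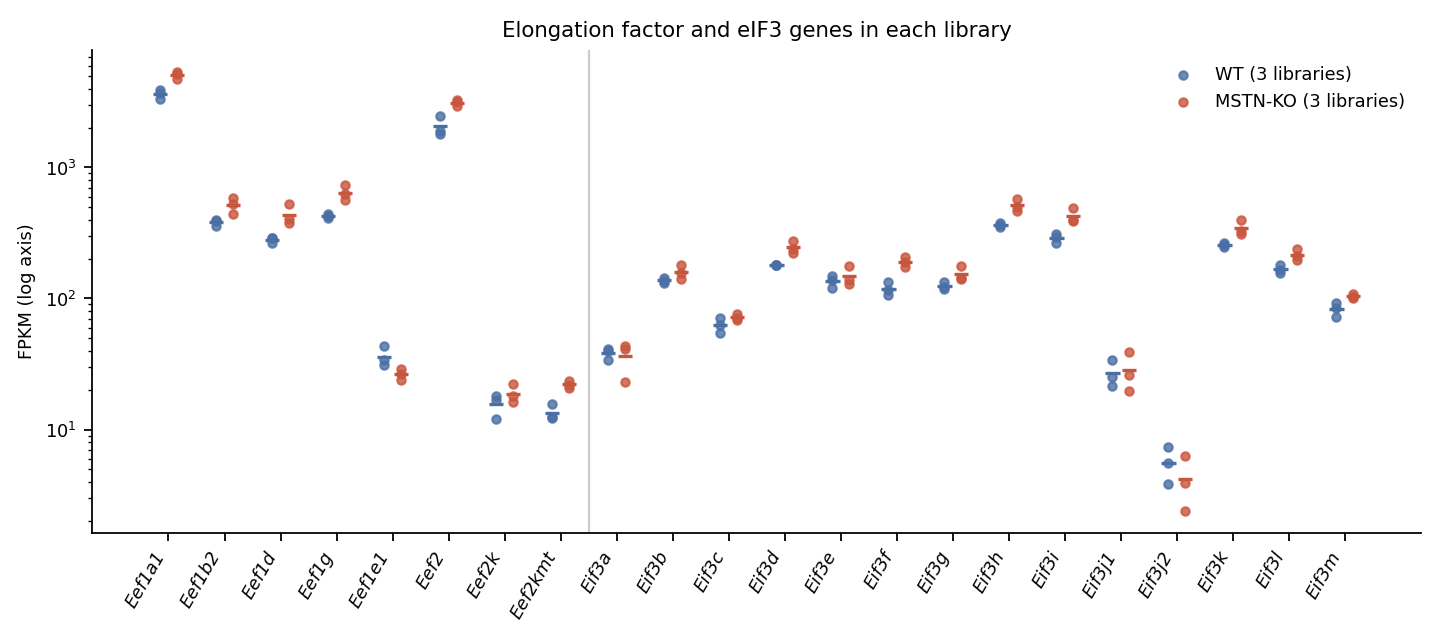
FPKM on a log axis for 8 eEF1 and eEF2 genes (left of the line) and the 14 eIF3 genes (right), with a point for each of the 3 WT (blue) and 3 MSTN-KO (red) libraries and a short bar at each mean. The red points lie above all blue points for Eef1a1, Eef1b2, Eef1d, Eef1g, Eef2 and Eef2kmt and for 8 eIF3 genes, while Eef2k and Eif3a overlap and Eef1e1 lies lower.

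Many elongation factor mRNAs are known as TOP mRNAs, which begin with a C followed by a run of pyrimidines and whose translation follows mTOR. Of a list of 9 such factor genes, chosen with earlier results of these data known, 7 rose (77.8%, against 8.78% of all tested genes) and 0 fell (against 8.96%). All 9 are also counted by role, among them the 5 elongation factor subunits above, so these are the same calls counted again. At an unadjusted p under 0.05, 8 rose (88.9%, against 16.3%) and 0 fell (against 16.2%). The median log2 fold change of the 9 was 0.50. The exceptions were *Eef1b2* and *Eif3e*, an eIF3 subunit at 0.12, SE 0.14, adjusted p = 0.599. The annotated starts are shown for some of the members that rose or fell, to set this list beside the sequence. Each line has 15 bases before and 15 bases from the RefSeq transcription start (GRCm38.p6). Capitals mark a C followed by 4 or more bases that are each C or T. This C begins between 5 bases before and 6 bases after the start. The capitals can end inside a longer run, as in *Eef1a1*, *Eif3f* and *Eif2b5*, where the next base is also C or T. In *Eif2b5* the run also reaches back to the first base shown.
Eef1a1 (chr9:78481710-78481739, minus strand): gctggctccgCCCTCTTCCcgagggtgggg
Eef2 (chr10:81176616-81176645, plus strand): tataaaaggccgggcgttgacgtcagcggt
Eif3f (chr7:108934400-108934429, plus strand): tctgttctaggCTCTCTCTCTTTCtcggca
Eif3d (chr15:77970810-77970839, minus strand): gtggtagggccatttacgacagcgctggtc
Eif4a2 (chr16:23107453-23107482, plus strand): ccgcggaaaccccgtaggagcagggcggcc
Eif4g1 (chr16:20672712-20672741, plus strand): cgccagcgcagctccgCCCTCTgcgccggt
Eif2b5 (chr16:20498802-20498831, plus strand): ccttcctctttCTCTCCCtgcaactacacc
The pattern was searched on the transcribed strand only, since it is a property of the mRNA. Of the 48 members with a RefSeq entry, 13 held it (27.1%), against 22.5% of all 27025 genes with an entry. It stood in 2 of the 7 members that rose and 2 of the 4 that fell for which there was an entry. All of these with the pattern are printed above, but only some of those without it. Its absence from a window says only that these letters are not at that annotated start.

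eIF3 is the largest initiation factor, a scaffold on the small ribosomal subunit. Of its 14 genes, 5 were higher (35.7%, against 8.78% of all tested genes) and 0 lower (against 8.96%) by limma. At an unadjusted p under 0.05, 8 were higher (57.1%, against 16.3%) and 0 lower (against 16.2%). The mean was above WT in 12, and in 8 the MSTN-KO libraries all lay above WT, as in 19.3% of all tested genes. The median log2 fold change was 0.31, at 0.18 with quantile normalization and 0.03 with a common summed FPKM, where the median of all genes was -0.26. *Eif3f* (chr7:108934417-108942951) rose most, from 133, 117 and 107 FPKM in WT to 189, 175 and 209 FPKM in MSTN-KO. Its log2 fold change of 0.68, SE 0.13, adjusted p = 0.00341 passed in all 16 alternative fits.

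The other 4 that rose belong to several parts of the complex. *Eif3i* (chr4:129591960-129600648) rose from 309, 266 and 292 FPKM to 389, 396 and 487 FPKM, with a log2 fold change of 0.54, SE 0.13, adjusted p = 0.0137. *Eif3h* (chr15:51786558-51865523) rose from 349, 366 and 375 FPKM to 501, 468 and 576 FPKM (0.50, SE 0.13, adjusted p = 0.0168). In both, the lowest MSTN-KO library lay above the highest WT library. *Eif3d* (chr15:77958998-77970813), a subunit that can bind the cap of some mRNAs, was nearly constant in WT at 180.2, 181 and 181 FPKM and rose to 239, 224 and 276 FPKM (0.44, SE 0.12, adjusted p = 0.0257). *Eif3k* (chr7:28971372-28981864), one of the small outer subunits, rose from 264, 254 and 246 FPKM to 327, 311 and 395 FPKM (0.43, SE 0.13, adjusted p = 0.0358). MSTN-KO replicate 3 was the highest library for all 5.

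The remaining 9 eIF3 genes did not pass. *Eif3l*, *Eif3m* and *Eif3g* lay above WT without overlap, with means of 167 and 216 FPKM, 83.2 and 104 FPKM and 125 and 154 FPKM in WT and MSTN-KO and log2 fold changes (± SE, here and in the paragraphs that follow) of 0.36 ± 0.13, 0.32 ± 0.13 and 0.30 ± 0.13. The core subunits *Eif3b* and *Eif3c* overlapped, at 0.21 ± 0.13 and 0.20 ± 0.13. *Eif3a*, the largest core subunit, measured 33.9, 39.4 and 41.1 FPKM in WT and 43.7, 41.4 and 23.2 FPKM in MSTN-KO and changed direction with 1 library, since its log2 fold change of -0.12, SE 0.20, adjusted p = 0.704 became 0.16 without MSTN-KO replicate 3. *Eif3j1* and *Eif3j2*, 2 copies of a loosely bound subunit, were the least abundant and varied most, with 0.04 ± 0.22 and -0.38 ± 0.26. Differences between subunits were not tested. *Eif3d* and *Eif3k* lost their calls in 5 of the 6 fits that left out a library (every one but that without MSTN-KO replicate 2; largest adjusted p 0.107 and 0.133). *Eif3h* lost its call without WT replicate 1 or 2 or MSTN-KO replicate 1 (0.0785), and *Eif3i* without WT replicate 2 (0.0883). The log2 fold changes in those fits were 0.36 to 0.51 for *Eif3d*, 0.33 to 0.50 for *Eif3k*, 0.41 to 0.56 for *Eif3h* and 0.44 to 0.60 for *Eif3i*, all above 0. With a common summed FPKM, *Eif3d* at 0.16 (adjusted p = 0.162), *Eif3h* at 0.21 (0.0744) and *Eif3k* at 0.14 (0.214) did not pass. *Eif3k* also did not pass with quantile normalization (0.24, adjusted p = 0.0726), with limma's trend of variance on level left out, or without a filter on low values.

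The eIF4 factors bind the mRNA cap and unwind the leader. Of 12 genes, 1 rose (8.33%, against 8.78% of all tested genes), 2 fell (16.7%, against 8.96%) and 9 did not pass. The median log2 fold change was -0.06. Both genes that fell lie in the stretch of chromosome 16 described below. *Eif4a2* (chr16:23107444-23114136), a paralog of the RNA helicase eIF4A, fell most of all factor genes, from 64.4, 71.1 and 72.7 FPKM in WT to 35.9, 42.4 and 25.8 FPKM in MSTN-KO. Means were 69.4 ± 4.43 FPKM and 34.7 ± 8.39 FPKM, or 50.1% of WT, and the log2 fold change was -1.005, SE 0.16, adjusted p = 0.00123. It was the only factor gene past the fold cutoff of the study, just inside it, and was outside without WT replicate 2 (-0.99), WT replicate 3 (-0.97) or MSTN-KO replicate 3 (-0.81) and with a correction for length and GC content (-0.83). Its adjusted p was under 0.05 in all 16 alternatives. The more abundant helicase gene *Eif4a1* overlapped between the groups at 599.5, 706 and 847 FPKM in WT and 807, 753 and 891 FPKM in MSTN-KO (0.20, SE 0.15, adjusted p = 0.378). As a share of both genes, *Eif4a2* made up 9.69%, 9.15% and 7.91% in WT and 4.26%, 5.34% and 2.81% in MSTN-KO. The means were 8.92% ± 0.916 and 4.14% ± 1.27 (SD, n = 3, two-sided exact permutation test, p = 0.1, the smallest possible). How fragments were placed between these genes and the processed pseudogene *Eif4a-ps4* is uncertain.

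*Eif4g1* (chr16:20668313-20692884) encodes the main scaffold that joins the cap-binding protein, the helicase and eIF3. It fell from 132, 105 and 112 FPKM in WT to 71.00, 68.8 and 71.4 FPKM in MSTN-KO. The call (-0.71, SE 0.12, adjusted p = 0.00204) held in all 16 alternatives. *Eif4g2*, an eIF4G relative that lacks the eIF4E binding site, overlapped at 144, 127 and 150.0 FPKM in WT and 119, 129 and 83.1 FPKM in MSTN-KO (-0.37, SE 0.16, adjusted p = 0.132). *Eif4g3*, another eIF4G, was much less abundant and also overlapped (12.2 ± 1.81 FPKM against 11.3 ± 1.38 FPKM; -0.11, SE 0.15, adjusted p = 0.664). *Eif4b* (chr15:102073773-102097173), a cofactor of the helicase, was the 1 gene of this set that rose, from 142, 149 and 154 FPKM to 193, 195 and 202 FPKM (0.40, SE 0.11, adjusted p = 0.0278). It lost its call in every fit that left out a library except that without MSTN-KO replicate 2 (largest adjusted p 0.122), with log2 fold changes of 0.37 to 0.43. It also did not pass with a common summed FPKM (0.12, adjusted p = 0.322), with quantile normalization (0.26, adjusted p = 0.0732) or without the trend.

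The cap-binding proteins did not pass. *Eif4e* measured 38.8, 42.2 and 53.4 FPKM in WT and 45.6, 48.2 and 38.5 FPKM in MSTN-KO (-0.01, SE 0.15, adjusted p = 0.959). *Eif4e2*, a relative that represses translation, lay below WT without overlap at 122, 121 and 123 FPKM in WT and 91.97, 99.1 and 115 FPKM in MSTN-KO (-0.26, SE 0.12, adjusted p = 0.162). It passed as lower in 2 of 16 alternative fits, a common summed FPKM (-0.55, adjusted p = 0.00273) and quantile normalization (-0.40, adjusted p = 0.0152). The rarer *Eif4e3* overlapped (0.11 ± 0.19). *Eif4enif1*, which carries eIF4E into the nucleus, lay below WT without overlap (-0.22 ± 0.13). *Eif4a3*, a helicase of the exon junction complex, and *Eif4h*, a helicase cofactor, overlapped at 0.17 ± 0.12 and 0.07 ± 0.13. The 4E-BPs block eIF4E until mTOR phosphorylates them. Limma called 0 of 3 in either direction, against 8.78% higher and 8.96% lower of all tested genes. At an unadjusted p under 0.05, 1 was higher (33.3%, against 16.3% of all). That was *Eif4ebp1*, at 243, 226 and 241 FPKM in WT and 269, 265 and 345 FPKM in MSTN-KO (0.29, SE 0.13, adjusted p = 0.145). *Eif4ebp2* and *Eif4ebp3* overlapped (0.07 ± 0.15 and 0.09 ± 0.21). *Eif4ebp1* made up 81.9% ± 2.45 of *Eif4ebp1* plus *Eif4ebp2* in WT and 84.1% ± 2.23 in MSTN-KO (SD, n = 3; two-sided exact permutation test, p = 0.4).

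*Eif4a2*, *Eif4g1* and *Eif2b5* lie close together on chromosome 16, and the genes around them were lower too. In the stretch chr16:15552077-24992578 (GRCm38), from *Ube2v2* to *Lpp*, all 80 tested genes had a lower mean log2 value in MSTN-KO and 65 passed the test. The bounds of the stretch were chosen by eye after the values were seen, so that all 80 being lower follows in part from the choice. *Snai2*, the tested gene just before the stretch, was also below WT, at a log2 fold change of -0.12, and *Tprg*, just after it, was above WT at 0.88. The 77 genes of the stretch other than these factors had a median log2 fold change of -0.69 (quartiles -0.87 and -0.56), or 0.620 of WT. The median over the stretch, relative to each gene's WT mean, was 0.06, -0.02 and -0.02 for WT and -0.69, -0.73 and -0.61 for MSTN-KO, so all MSTN-KO libraries shared it. The 20 tested genes before the stretch had a median of 0.06 and the 20 after it 0.00. *Eif4g1* at -0.71 lay near the median of the stretch, *Eif2b5* at -0.52 lay above its upper quartile, and *Eif4a2* at -1.005 lay below its lower quartile. With length and GC content corrected, the median of the other genes was -0.71.

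**Figure D3:**
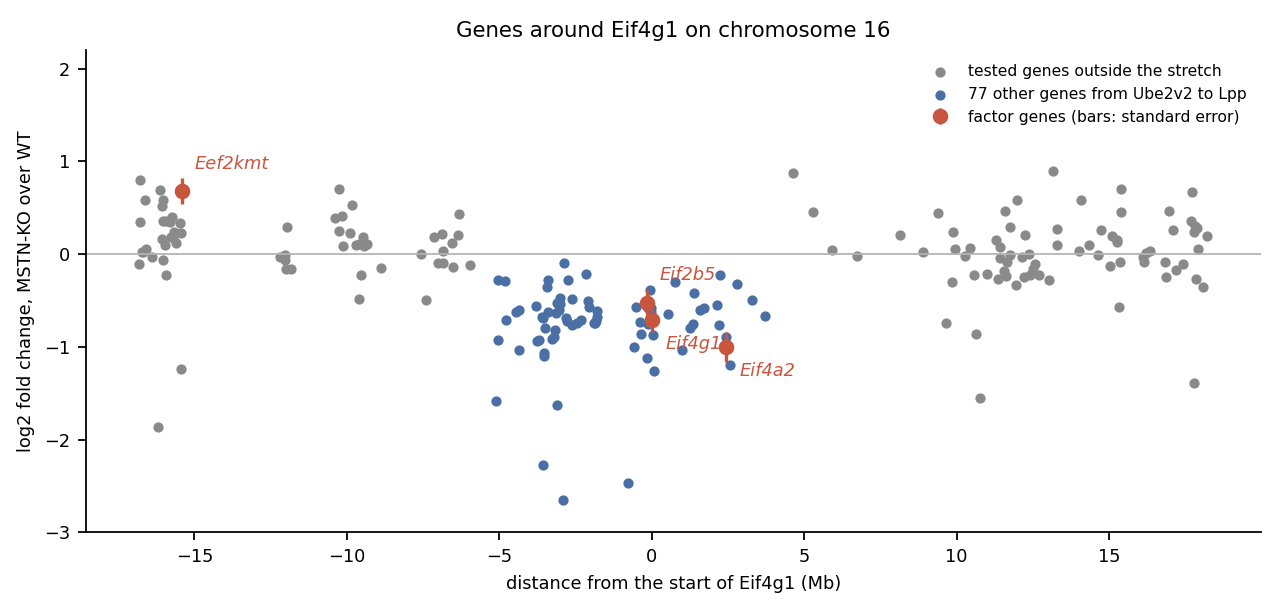
Log2 fold change, MSTN-KO over WT, of tested genes on chromosome 16 against their distance in Mb from the start of Eif4g1 (grey, genes outside the stretch; blue, the 77 other genes of the stretch; red, factor genes with standard errors). Eif2b5, Eif4g1 and Eif4a2 lie among genes with a median of -0.69, and Eef2kmt lies outside, at 0.68.

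The 15 tested genes on each side were also read for the factor genes elsewhere. Around *Eif2b5* the 30 neighbours had a median of -0.72 and 26 of them passed as lower, around *Eif4g1* the median was -0.69 with 27, and around *Eif4a2* it was -0.56 with 17. Neighbours of the other 2 factors that fell had medians of -0.01 (*Eif5*) and -0.07 (*Eif1a*). Over the 11 factors that rose, the neighbour medians went from -0.11 (*Eif3h*, with 19 of 30 lower) to 0.30 (*Eif3d*, with 11 of 30 passing as higher). They were 0.04 for *Eef1a1*, 0.07 for *Eef1g* and *Eif3i* and 0.08 for *Eif3f*, and 0.22 for *Eef2kmt*. *Eef1b2* lay against its neighbours, whose median was -0.33 with 27 of 30 lower. Without the 3 genes of the stretch, 59 tested factors held 11 higher and 2 lower, at a median of 0.14. What lowered the stretch was not tested.

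eIF2 brings the initiator tRNA to the ribosome as a complex with GTP. Its 3 subunit genes and the related carriers *Eif2a* and *Eif2d* gave 0 calls in either direction by limma, and 0 at an unadjusted p under 0.05. Of all tested genes, 8.78% were called higher and 8.96% lower, or 16.3% and 16.2% at the unadjusted p. *Eif2s1*, the subunit phosphorylated under stress, measured 25.8, 27.9 and 37.5 FPKM in WT and 26.5, 31.6 and 26.1 FPKM in MSTN-KO (-0.10, SE 0.15, adjusted p = 0.691). *Eif2s2* overlapped (0.01 ± 0.17), and *Eif2s3x* measured 75.5, 81.04 and 100.3 FPKM in WT and 66.8, 81.4 and 58.7 FPKM in MSTN-KO (-0.31, SE 0.15, adjusted p = 0.172). *Eif2a* and *Eif2d* were at 0.17 ± 0.16 and 0.02 ± 0.14. The eIF2 kinases, each of which answers another stress, gave 0 calls of 3. At an unadjusted p under 0.05, 1 was higher (33.3%, against 16.3% of all tested genes). *Eif2ak4*, the sensor of amino acid shortage, lay above WT without overlap at 3.99, 3.76 and 3.47 FPKM in WT and 6.54, 4.96 and 4.24 FPKM in MSTN-KO but did not pass (0.38, SE 0.17, adjusted p = 0.132), and it was the 1 kinase with an unadjusted p under 0.05. *Eif2ak3*, the sensor of the endoplasmic reticulum, and *Eif2ak1*, the heme-regulated kinase, overlapped at -0.12 ± 0.15 and -0.03 ± 0.14.

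eIF2B exchanges GDP for GTP on eIF2. Of its 5 genes, 1 fell (against 8.96% of all tested genes) and 0 rose (against 8.78%) by limma. At an unadjusted p under 0.05, 1 was higher (against 16.3%) and 1 lower (against 16.2%). *Eif2b5* (chr16:20498817-20509323) encodes the catalytic subunit. It fell from 45.2, 42.5 and 41.9 FPKM in WT to 30.8, 25.3 and 33.9 FPKM in MSTN-KO (-0.52, SE 0.14, adjusted p = 0.0182), and lost its call without WT replicate 1, WT replicate 2 or MSTN-KO replicate 2 (largest adjusted p 0.0670), at log2 fold changes of -0.61 to -0.41 over the 6 fits. The genes of the other 4 subunits did not pass. *Eif2b2* lay above WT without overlap (0.24 ± 0.12), and *Eif2b1*, *Eif2b3* and *Eif2b4* overlapped at -0.03 ± 0.14, 0.32 ± 0.15 and 0.14 ± 0.14.

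The factors that read the start codon and join the subunits have 7 genes. By limma 2 were lower (28.6%, against 8.96% of all tested genes) and 0 higher (against 8.78%). At an unadjusted p under 0.05, 1 was higher (14.3%, against 16.3%). *Eif5* (chr12:111538016-111546752) encodes the protein that makes eIF2 cleave its GTP at the start codon. It fell from 32.8, 33.2 and 41.8 FPKM in WT to 21.7, 30.5 and 17.4 FPKM in MSTN-KO (-0.64, SE 0.18, adjusted p = 0.0295). *Eif1a* (chr18:46597701-46616456), a scanning factor, fell from 24.7, 28.1 and 33.2 FPKM to 17.98, 24.6 and 14.6 FPKM (-0.58, SE 0.18, adjusted p = 0.0390). For *Eif1a* the highest MSTN-KO library lay just below the lowest WT library, and in both genes MSTN-KO replicate 3 was lowest and replicate 2 highest of its group. Both lost their calls in all fits that left out a library except that without MSTN-KO replicate 2 (largest adjusted p 0.125 and 0.154), with log2 fold changes of -0.85 to -0.46 and -0.78 to -0.42. Neither passed without a filter on low values, and *Eif1a* also did not pass without the trend, with quantile normalization (adjusted p = 0.0514) or with 75th percentile scaling. The X-linked copy *Eif1ax* overlapped, with 24.5, 25.5 and 32.5 FPKM in WT and 24.6, 31.1 and 28.5 FPKM in MSTN-KO (0.03, SE 0.15, adjusted p = 0.901).

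*Eif1*, the abundant partner of eIF1A in scanning, overlapped at 731, 752 and 783 FPKM in WT and 758, 722 and 944 FPKM in MSTN-KO (0.09, SE 0.14, adjusted p = 0.693). Its rarer paralog *Eif1b* lay above WT without overlap (39.4, 47.7 and 44.1 FPKM against 52.7, 53.1 and 67.1 FPKM) and did not pass (0.39, SE 0.14, adjusted p = 0.0698). *Eif5b*, which joins the subunits, and *Eif1ad* overlapped at -0.34 ± 0.18 and 0.07 ± 0.14. Later factors gave 0 calls of 3, also at an unadjusted p under 0.05, where 16.3% of all tested genes were higher and 16.2% lower. *Eif5a*, whose product helps the ribosome past stalled peptide bonds and carries hypusine, measured 1700, 1477 and 1691 FPKM in WT and 1923, 1847 and 2214 FPKM in MSTN-KO, without overlap (0.30, SE 0.14, adjusted p = 0.159). *Eif5a2* was at no more than 3.10 FPKM in any library (-0.39 ± 0.20), and *Eif6*, which keeps the large subunit free, overlapped (0.23 ± 0.14). The eEF1A methyltransferase genes *Eef1akmt1* and *Eef1akmt2* overlapped (0.22 ± 0.15 and -0.28 ± 0.20). *Eef1akmt3* was the 1 member not tested, at no more than 0.414 FPKM in any library.

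Other genes of translation were taken as a list of 50, of which 47 were tested. Limma called 6 higher (12.8%, against 8.78% of all tested genes) and 1 lower (2.13%, against 8.96%), and the median log2 fold change was 0.08, between the 0.12 of the factor genes and the -0.00078 of all genes. The poly(A) binding proteins, which bind eIF4G and close the mRNA into a loop, rose. *Pabpc1* went from 459 ± 44.9 to 656 ± 33.6 FPKM (0.52, adjusted p = 0.0145) and *Pabpc4* from 85.9 ± 5.29 to 147 ± 13.3 FPKM (0.76, adjusted p = 0.0011). Their partner *Paip1* fell from 29.5 ± 4.63 to 19.7 ± 4.25 FPKM (-0.57, adjusted p = 0.0364). *Ppp1r15a*, which directs a phosphatase to eIF2, rose from 14.5 ± 2.85 to 24.1 ± 3.49 FPKM (0.70, adjusted p = 0.0113). The mitochondrial elongation factor *Tsfm*, the lysyl-tRNA synthetase gene *Kars* and *Aimp1* of the tRNA synthetase complex rose by 0.43, 0.57 and 0.41. The genes for mTOR and MAPK inputs, termination and recycling, hypusine and other initiation helpers gave 0 calls of 5, 4, 2 and 5, with 1 initiation helper higher at an unadjusted p under 0.05.

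Longer factor genes tended to have lower fold changes. Across the 62 factor genes, Spearman's rho of exonic length and log2 fold change was -0.36, and across all 10784 tested genes with a length it was -0.22. These are correlations across genes of the same libraries, which are not independent replicates. The median exonic length was 2891 bases in the genes that rose, 5338 in those that fell and 4073 in the others. After each library's trend on length and GC content was taken out, rho was -0.16 over the factor genes and -0.05 over all genes. All 16 calls held in that fit, and *Eef1b2*, *Eif2a*, *Eif2b3*, *Eif3e*, *Eif3l* and *Eif3m* joined the genes that rose. That made 17 higher (27.4%, against 11.1% of all tested genes) and 5 lower (8.06%, against 12.2%). *Eif3e* moved from 0.12 to 0.37 and *Eif2a* from 0.17 to 0.36.

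**Figure D4:**
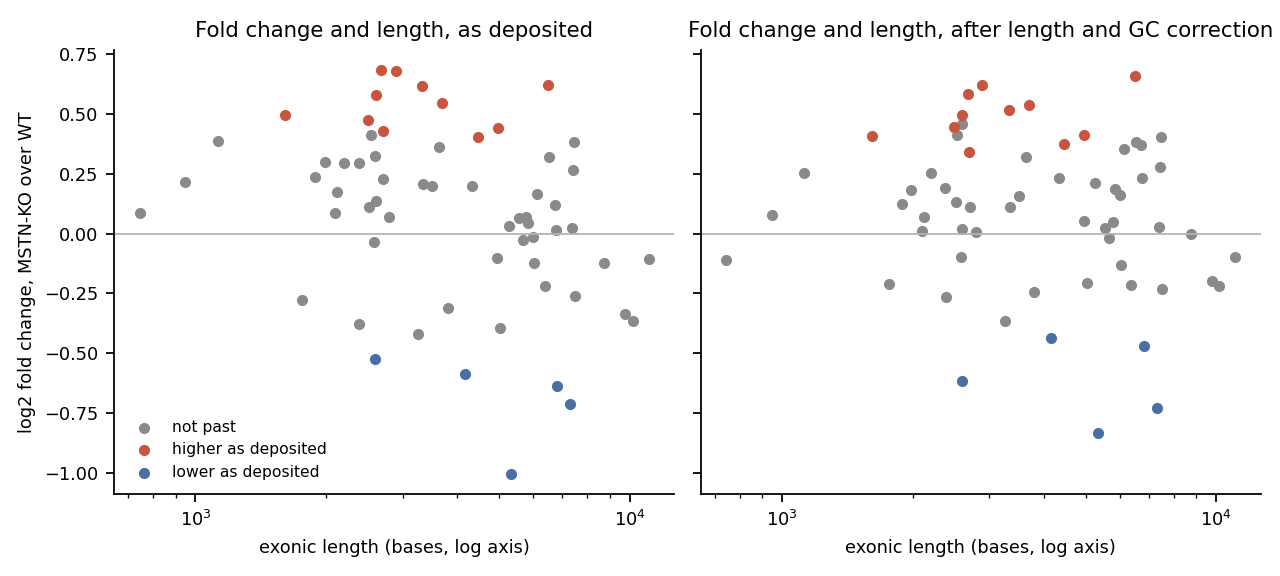
Log2 fold change, MSTN-KO over WT, of the 62 tested factor genes against exonic length in bases (log axis), as deposited (left) and after the length and GC correction (right), coloured by the call on the values as deposited. The genes that rose have a median length of 2891 bases and those that fell 5338 bases, and rho goes from -0.36 to -0.16.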

How the data were processed

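RNA from 3 WT and 3 MSTN-KO C2C12 samples was sequenced by the authors on an Illumina HiSeq system, and they deposited FPKM per gene, one library per file. The submitters' processing notes name Bowtie 0.12.2 and mm8; the gene annotation and filters are not given in the sources used here. FPKM divides by length and by the library's total, so abundant genes lower all others. Symbols, positions and exonic lengths came from GENCODE M21 (GRCm38) for 14445 of 14548 genes (99.3%), and start sequences from RefSeq (GRCm38.p6).

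Genes that reached 1 FPKM in any library, 10837 in all, were fitted as log2(FPKM + 1) by limma 3.58.1 (R 4.3.3, trend) with Benjamini-Hochberg adjustment. Folds are on that scale, which understates changes of low genes. Single ratios were compared by two-sided exact permutation tests. The fit was tested on simulated data. No depth was estimated, so counting error is unknown.

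Genes named with values were the 10 largest rises, the called falls, the most abundant members and paralog sets, and the rest were added by role after their values were seen. The members and lists were chosen with earlier results of these data known. Alternatives were another pseudocount, filters, limma without trend, 3 scalings, a length and GC correction (mgcv 1.9.3), a replicate block and leaving out each library. A planned ratio of *Eef1a2* to *Eef1a1* was not analysed here.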

Additional observations from a re-analysis of the deposited data

How the results depend on the processing

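The 11 factor genes that rose became 4 with libraries scaled to a common sum (6.45%, against 3.23% of all tested genes). They became 17 with the length and GC correction (27.4%, against 11.1%), and 3 to 13 with a library left out (4.84% to 21.0%, against 3.92% to 11.0%). The 5 that fell became 3 without a filter (4.76%, against 6.23%) and 10 with the common sum (16.1%, against 21.8%). With a library left out they became 2 to 5 (3.23% to 8.06%, against 5.61% to 11.6%). The 1 gene past the fold cutoff became 0 with the length and GC correction, with or without the replicate block, and 0 to 1 with a library left out. The median of 0.12 became 0.0158 with quantile normalization, 0.0656 with 75th percentile scaling and -0.16 with the common sum. The share of summed FPKM and the *Eif4a2* and *Eif4ebp1* percents kept their direction with each library left out. *Eef1d*, *Eif3f*, *Eif4a2* and *Eif4g1* passed in all 16 alternatives. FPKM give no depth, so what depth limits could not be stated. The cause of these moves was not tested.

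Same-numbered libraries did not deviate together (correlations of -0.02, -0.13 and -0.14), so no effect shared by a number was seen. That cannot tell whether samples of the same number were handled together. With the replicate block 12 factor genes rose (19.4%, against 8.66% of all tested genes), *Eef1b2* being the 1 gained, and 5 fell (8.06%, against 9.24%). With the block and the length and GC correction 15 rose (24.2%, against 9.60%) and 6 fell (9.68%, against 10.4%).

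These log2 fold changes changed sign. With quantile normalization they were -0.0252 for *Eef1a1*, -0.14 for *Eif1*, -0.0125 for *Eif1ax*, 0.0197 for *Eif2ak1*, -0.0532 for *Eif2s2*, -0.00179 for *Eif3e*, -0.0255 for *Eif4a1*, -0.000511 for *Eif4ebp2*, -0.11 for *Eif4h* and -0.0967 for *Eif5a*. With 75th percentile scaling they were -0.0176 for *Eif1ax*, -0.0264 for *Eif2d*, -0.0357 for *Eif2s2* and -0.00529 for *Eif3j1*. With the common sum they were -0.0654 for *Eef1akmt1*, -0.00290 for *Eef2k*, -0.20 for *Eif1*, -0.21 for *Eif1ad*, -0.25 for *Eif1ax*, -0.10 for *Eif2a*, -0.0487 for *Eif2b2*, -0.14 for *Eif2b4*, -0.25 for *Eif2d*, -0.27 for *Eif2s2*, -0.0777 for *Eif3b*, -0.0826 for *Eif3c*, -0.17 for *Eif3e*, -0.23 for *Eif3j1*, -0.0883 for *Eif4a1*, -0.11 for *Eif4a3*, -0.16 for *Eif4e3*, -0.21 for *Eif4ebp2*, -0.17 for *Eif4ebp3*, -0.22 for *Eif4h* and -0.0581 for *Eif6*. With the length and GC correction, and also with the block and this correction, they were 0.0549 for *Eif2s1*, 0.16 for *Eif4e* and -0.11 for *Eif4ebp3*. Leaving out a library gave ranges of -0.0292 to 0.16 for *Eif1*, -0.0191 to 0.15 for *Eif1ad*, -0.0430 to 0.15 for *Eif1ax*, -0.0858 to 0.0239 for *Eif2ak1*, -0.12 to 0.0666 for *Eif2b1*, -0.0392 to 0.13 for *Eif2d*, -0.20 to 0.0559 for *Eif2s1*, -0.0943 to 0.22 for *Eif2s2*, -0.28 to 0.16 for *Eif3a*, -0.0143 to 0.21 for *Eif3e*, -0.21 to 0.27 for *Eif3j1*, -0.11 to 0.12 for *Eif4e*, -0.0927 to 0.29 for *Eif4e3*, -0.0388 to 0.22 for *Eif4ebp2*, -0.14 to 0.31 for *Eif4ebp3* and -0.0319 to 0.13 for *Eif4h*. No gene with a sign change had passed the test except *Eef1a1*.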
